A study of Mus musculus with 7 samples.

Results

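Ovarian hormone and prolactin signaling in the mouse mammary gland was followed through 9 genes: Prlr, Pgr, Esr1, Cited1, Tnfsf11, Stat5a, Stat5b, Socs2 and Cish. They were taken by symbol from the raw count table, 9 of its 27998 genes, and read out for every mouse and cell type. The samples were abdominal #4 mammary glands, without lymph nodes, of female nulliparous mice, 3 young (aged 3 to 4 months) and 4 aged (13 to 14 months). Per the study's methods, all mice had a mixed FVB, 129 and C57BL/6J background and were taken in diestrus, the progesterone-rich stage of the cycle. The glands were digested to single cells, and 1 10x 3′ library was made from each mouse, so the mouse is the replicate (Young A, B and C, and Aged A, B, C and D). No treatment and no altered allele was named for any mouse, and a single stage of the cycle and one mixed background limit what the groups can stand for.

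Estrogen acts through the nuclear receptor ERα, encoded by Esr1, and progesterone through PR, encoded by Pgr, a known estrogen target gene. Both receptors are found in a subset of luminal cells, the hormone-sensing (HS) cells, which pass the signal on to receptor-negative neighbors by secreted factors such as RANKL (Tnfsf11) and amphiregulin (Areg). Prolactin binds its own membrane receptor (Prlr), which activates the kinase JAK2 and the transcription factors STAT5A and STAT5B, and the STAT5 targets Socs2 and Cish encode inhibitors that feed back on the cytokine receptor. Alveolar (AV) luminal cells are the precursors of the milk-producing cells.

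The table held 13684 cells in 13 cell types named by the authors, with 6652599 to 16547583 unique molecular identifiers (UMIs, counted RNA molecules) per young mouse and 10207251 to 16999625 per aged mouse. Of 13583 barcodes, 101 occurred in over 1 library. HS cells numbered 1571 in the young and 567 in the aged mice, and they made up 46.4, 51.0 and 60.2% of the epithelial cells of young mice and 12.6, 9.43, 8.25 and 7.38% of those of aged mice. The HS cells were also described by 5 markers that are not among the 9 genes (Prom1, Foxa1, Krt19, Krt8 and Krt18). The authors used Prom1 to name HS cells, and Krt19, Krt18 and Krt8 to name luminal cells. These markers are therefore a description and not an independent check of the label. Their summed level was 14180 to 18680 CPM (UMIs of a gene scaled to 1e6 UMIs of that mouse and cell type) in HS cells and 187.3 to 552.5 CPM in vascular endothelial cells. It was 5529 to 12540 CPM in AV and 8776 to 14990 CPM in HS-AV cells, so this sum set HS cells apart from the stroma far more than from the other luminal types, which share its keratins. Median depth was 4758.5 to 5253 UMIs per cell in the young and 5582 to 7109.5 in the aged libraries, and age and the preparation of each library cannot be told apart.

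STAT5 dimers bind a palindrome that was searched here as TTCNNNGAA, which reads the same on both strands. Of 32851 RefSeq promoter windows (GRCm38.p6, 250 bases before to 50 after a start), 8.3% held it, and 0.457% held 2 or more copies. RefSeq gave 15 windows for 8 of the 9 genes, and 3 windows, of Cish, Esr1 and Prlr, held the motif. All 3 genes changed with age in AV cells, as described further on, Cish being higher and Esr1 and Prlr lower in aged mice. Pgr and Cited1 changed there too, and their windows held no match. The 30 bases around each match follow, with the motif in capitals:

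Cish: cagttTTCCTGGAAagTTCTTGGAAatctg

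Esr1: gctggagtttcTTCTAGGAAtgctgattct

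Prlr: ggcaaaatgagTTCTAGGAAtaagggatat

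The Cish stretch lies at chr9:107296654-107296683 on the plus strand, in an untranslated exon, with its 2 motifs starting at bases 1 and 12, the RefSeq start being base 1. The Esr1 stretch lies at chr10:4709959-4709988, plus strand, in an intron of the gene in the GENCODE vM21 annotation, with its motif 188 bases before the start of that RefSeq transcript. The Prlr stretch lies at chr15:10223785-10223814, plus strand, also intronic, with its motif 110 bases before the start. These matches are letters in a window and say nothing of binding in these cells.

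HS cells held most of the counts of the receptors in both age groups. They carried 81.6% of the Prlr UMIs of young mice (17586 of 21546) and 85.2% of those of aged mice (5616 of 6589), 73.0 and 83.5% of the Pgr UMIs, and 50.6 and 60.0% of the Esr1 UMIs. For Cited1, which encodes a transcriptional coactivator of ERα, the shares were 87.4 and 92.5%. Prlr, Pgr, Esr1 and Cited1 were among the genes by which the authors named the HS cells, so their rank among cell types is a description and was not tested. The shares follow the cells caught as well as their levels: fibroblasts held 30.5% of the Esr1 UMIs in the young (247 of 809) and 5.07% in the aged mice (17 of 335). Of the signal transducers, Stat5a had 650 of its 1151 UMIs in HS cells in the young and 302 of 1513 in the aged mice, and Stat5b had 26.9 and 12.2% of its UMIs there. AV cells held 17.5% of the Cish UMIs in the young and 76.7% in the aged mice. Vascular endothelial cells held 38.4 and 48.2% of the Socs2 UMIs. By median level over mice, shown in the heatmap, Socs2 was highest in vascular endothelial cells (290.7 CPM) and Cish in lymphatic endothelial cells (105.6 CPM), followed by NK cells (77.4 CPM), AV cells (49.0 CPM) and vascular endothelial cells (42.5 CPM).

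**Figure D1:**
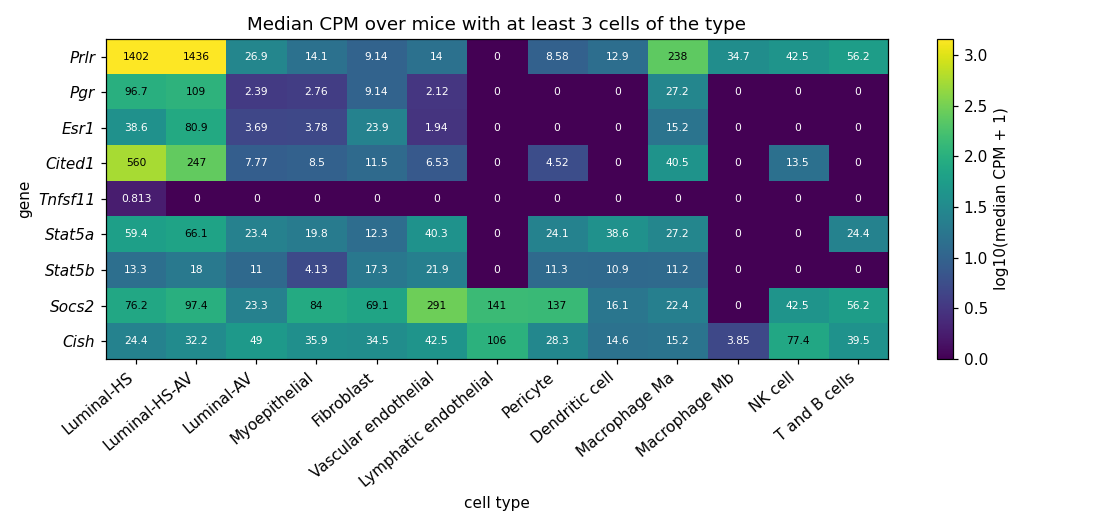
Median CPM over mice with at least 3 cells, for the 9 genes (rows) in 13 cell types (columns), on the color scale beside the map. Prlr and Cited1 stand highest in HS and HS-AV cells, Socs2 in vascular endothelial cells and Cish in lymphatic endothelial cells.

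Prolactin receptor was counted as lower in aged mice in more cell types than any other member. Its counts also allowed a test in more types than those of Pgr, Esr1 or Cited1. Pgr had too few counts for a test in myoepithelial cells and fibroblasts. There, too, every aged Pgr value lay below every young one. In HS cells Prlr stood at 1434, 1837 and 1665 CPM in Young A, B and C and at 1068, 1280, 1402 and 755.9 CPM in Aged A to D. Every aged value lay below every young one, but the log2 fold change of -0.44 ± 0.22 (SE) had an adjusted p of 0.256 (edgeR quasi-likelihood test, Benjamini-Hochberg over all 8457 genes tested in HS cells) and did not pass. A gene was counted as changed at an adjusted p under 0.05 and at least 1.5-fold, and 6.26% of the genes tested in HS cells were. None of the 8 members tested in HS cells was among them by edgeR. The unadjusted p was under 0.05 for 1 of them, Socs2, which also passed by DESeq2.

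In AV cells Prlr was at 141.4, 242.8 and 203.7 CPM in the young and at 26.7, 25.5, 26.9 and 21.6 CPM in the aged mice. The groups were well apart, and Prlr fell 6.44-fold (log2 -2.69 ± 0.22, adjusted p = 0.000375), a change that passed in all 15 alternatives run, between -2.95 and -2.50. In AV cells every member but Tnfsf11 was tested. Of them 5 changed, beside 6.16% of all genes tested: Prlr, Pgr, Esr1 and Cited1 were lower and Cish was higher.

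Myoepithelial cells, the contractile layer around the luminal cells, had 23.6, 88.5 and 22.7 CPM of Prlr in the young and 13.8, 14.1, 3.08 and 2.85 CPM in the aged mice. Of the members tested there (Prlr, Stat5a, Socs2 and Cish), only Prlr changed (log2 -1.87 ± 0.53, adjusted p = 0.0152, edgeR), beside 27.6% of all genes. Without Young B, the highest library, the change was -1.23 with an adjusted p of 0.103. Fibroblasts had 35.9, 19.6 and 46.7 CPM in the young and 5.17, 5.75, 0 and 9.14 CPM in the aged mice (log2 -2.63 ± 0.58, adjusted p = 0.0248). The aged fibroblast values rested on 5 Prlr UMIs in all, and the call was lost without any 1 of the 4 aged mice (adjusted p 0.0522 to 0.174). Of the members tested in fibroblasts, Prlr and Cish changed and Esr1, Stat5b and Socs2 did not, beside 3.17% of all genes.

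Vascular endothelial cells, which line blood vessels and are not an epithelial type, also had less Prlr in aged mice. The levels were 32.6, 17.4 and 42.6 CPM in the young and 2.12, 14.0, 6.24 and 10.8 CPM in the aged mice, with no overlap (log2 -1.36 ± 0.41, adjusted p = 0.0223, edgeR). The change did not pass without Young A, Young C or Aged C (adjusted p 0.0773, 0.0671 and 0.0567). In HS-AV cells, luminal cells with markers of both lineages, Prlr was at 2267, 1406 and 1649 CPM in the young and at 1174, 1466 and 695.1 CPM in the 3 aged mice with enough cells (adjusted p = 0.46), where neither member tested, Prlr or Cited1, passed and 1.46% of all genes changed. Those aged values came from 16 cells, whose summed AV markers stood at 304.1 to 476.4 CPM against 2958 to 5248 CPM in the young HS-AV cells. Macrophage Ma cells had 237.9, 78.3 and 320 CPM of Prlr in the 3 young mice, and the only aged cell of that type held none, so no test was possible.

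**Figure D2:**
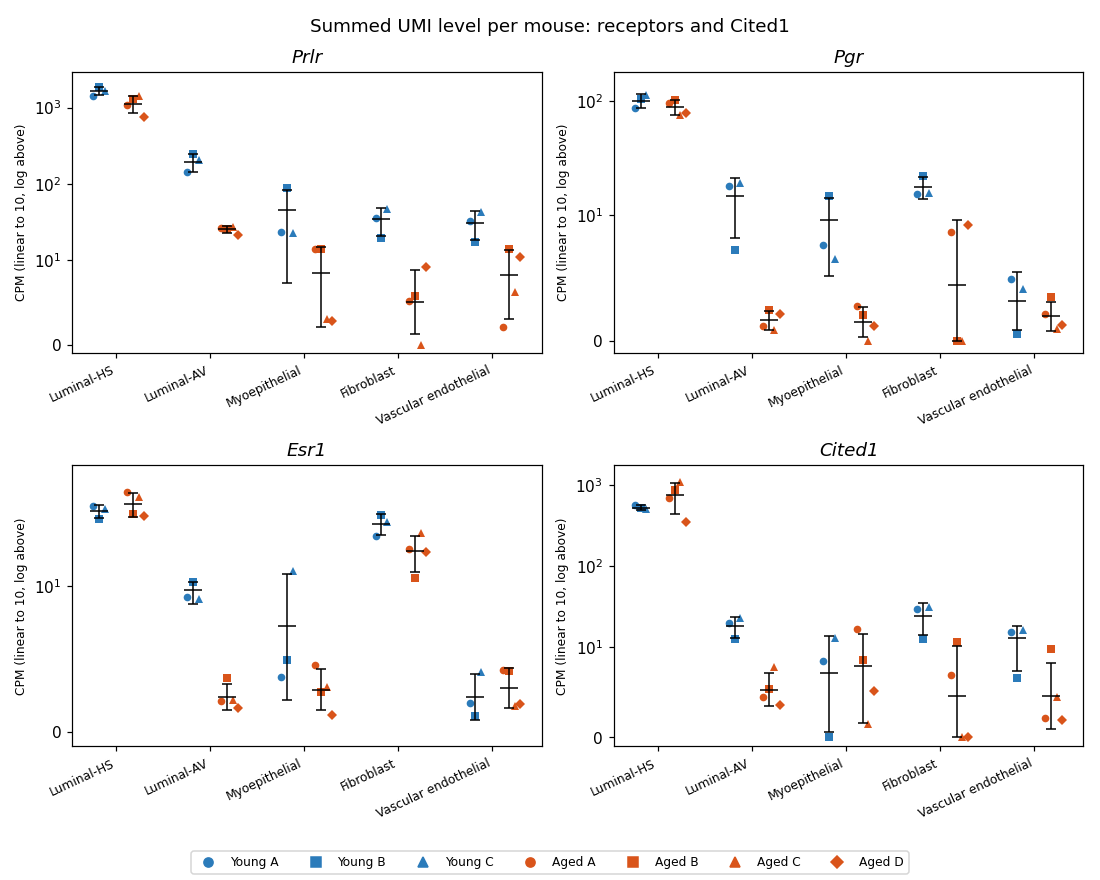
Level in CPM of Prlr, Pgr, Esr1 and Cited1 in each mouse (points) by cell type, young beside aged, with the group mean ± SD in black (the vertical axis is linear to 10 CPM and logarithmic above, and lower bars stop at 0). In HS cells the groups overlap for Pgr, Esr1 and Cited1, and the 3 young mice sit above the 4 aged mice for Prlr. In AV cells the 3 young mice sit above the 4 aged mice for all 4 genes.

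The steroid receptors showed no difference in HS cells beyond the spread of the mice. Pgr was at 86.7, 104.5 and 113.9 CPM in HS cells of young mice and at 96.7, 103.7, 76.1 and 79.3 CPM in those of aged mice (log2 -0.07 ± 0.18, adjusted p = 0.864, edgeR). Esr1 was at 40.8, 32.4 and 38.6 CPM in the young and 52.0, 35.5, 47.6 and 34.3 CPM in the aged mice (log2 0.28 ± 0.17, adjusted p = 0.346). The groups overlapped for both receptors. Cited1 was at 560.4, 514.1 and 495.7 CPM in the young, and in the aged mice at 693.4, 856, 1090 and 343.1 CPM, on both sides of the young values (log2 0.62 ± 0.30, adjusted p = 0.234).

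In AV cells the same genes were low and lower still in aged mice. Pgr was at 17.9, 7.20 and 19.0 CPM in the young and at 1.15, 2.39, 0.818 and 2.10 CPM in the aged mice (log2 -2.99 ± 0.41, adjusted p = 0.00292, edgeR), and it passed in all 14 alternatives in which it was tested. Esr1 was at 9.23, 10.8 and 9.09 CPM against 2.14, 3.69, 2.18 and 1.61 CPM (log2 -1.68 ± 0.34, adjusted p = 0.0194). Cited1 was at 19.6, 12.6 and 23.1 CPM against 4.44, 5.38, 7.77 and 3.55 CPM (log2 -1.60 ± 0.31, adjusted p = 0.016). No aged mouse reached the lowest young mouse for any of these genes. The Esr1 call was lost without Young A, Young B, Young C or Aged C (adjusted p 0.0658, 0.0504, 0.0852 and 0.0531), and the Cited1 call without Young A or Young C (0.0591 and 0.107).

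Whether the age effect differed between HS and AV cells was tested in 1 fit over both cell types with the mouse as a block. The log2 change with age was more positive in HS cells by 2.17 ± 0.24 for Prlr (adjusted p = 2.56e-05), 2.94 ± 0.37 for Pgr (7.86e-05), 1.87 ± 0.37 for Esr1 (0.00733) and 2.18 ± 0.30 for Cited1 (0.000231). These 4 of the 9 members tested passed, beside 2.37% of all 10277 genes. Against myoepithelial cells every member but Tnfsf11 was tested. The effect differed between HS and myoepithelial cells for Prlr and Pgr, beside 9.35% of all genes. Between AV and myoepithelial cells it differed for Cish, beside 9.07%. The plot of age effects by cell type shows the split between HS and AV cells for the receptors.

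**Figure D3:**
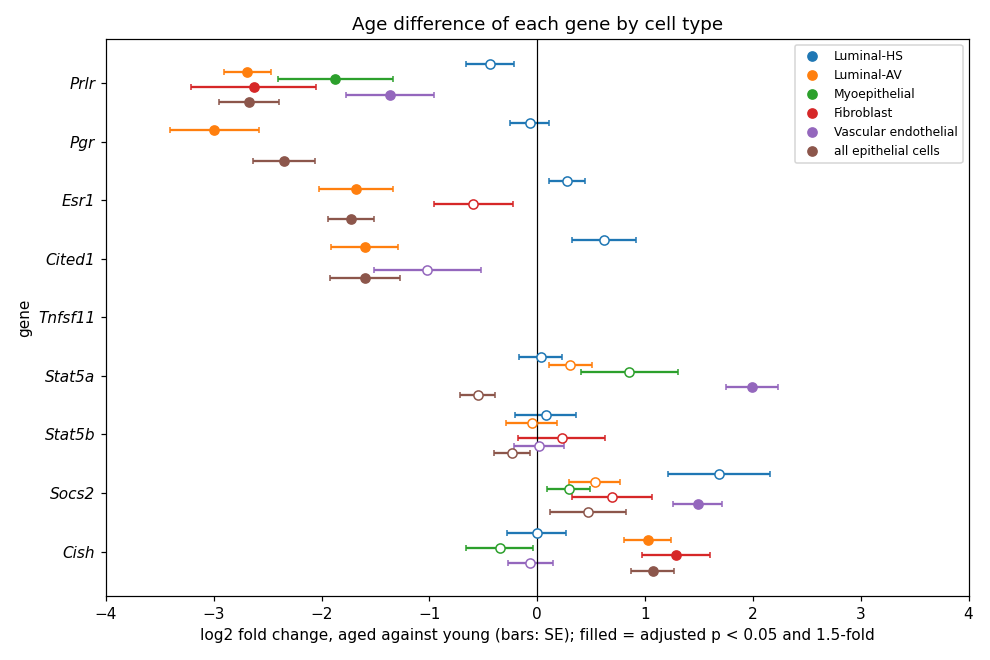
Log2 fold change of aged against young mice (point, with its SE) for each member in each cell type where it was tested, filled where the adjusted p was under 0.05 and the change at least 1.5-fold. For Prlr, Pgr, Esr1 and Cited1 the AV points lie between -2.99 and -1.60, whereas the HS points lie between -0.44 and 0.62.

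Other values moved with these AV differences. In droplet libraries, RNA released from broken cells gives UMIs in cells that do not express a gene, and HS cells held 48.9 to 63.9% of the epithelial UMIs in young mice and 8.44 to 14.6% in aged mice. The AV level of Prlr was 9.86, 13.2 and 12.2% of the HS level of the same young mice and 1.92 to 2.86% in the aged. In vascular endothelial cells, which do not belong to the HS lineage, the Prlr level was 0.948 to 2.56% of the HS level in the young and 0.198 to 1.43% in the aged mice, and in fibroblasts it was 1.07 to 2.81% and 0 to 1.21%. Areg, which encodes an HS cell ligand, was 3.88 to 6.49% of its HS level in young and 0.328 to 0.673% in aged AV cells. Calca, the calcitonin gene, reached 3589 CPM in HS cells of Young A, and there its level was 2.48% of the HS level in AV, 2.69% in vascular endothelial and 1.48% in fibroblast cells. Prlr and Cited1 UMIs were also not in 1 fixed ratio. There were 3.17 Prlr UMIs per Cited1 UMI in HS cells of young mice and 9.0 in their AV cells, and 1.52 and 4.68 in those of aged mice.

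With the vascular endothelial level of the same mouse subtracted, an alternative chosen after the data were seen, AV cells had 165.1 ± 58.4 CPM of Prlr in the young (SD, n = 3) and 16.9 ± 6.78 CPM in the aged mice (SD, n = 4, exact two-sided permutation p = 0.0286, the smallest that 3 against 4 mice allow). For Pgr the subtracted means were 11.5 CPM in the young and -0.33 CPM in the aged, and for Esr1 7.32 and -0.62 CPM (exact permutation p = 0.0286 each), and the aged AV means of both lay below the endothelial level. For Cited1 they were 5.59 ± 1.35 and 0.72 ± 3.48 CPM (SD, n = 3 and 4, exact permutation p = 0.0571). The part of released RNA in the AV differences was not tested beyond these values. Nor was its part in the Prlr differences of myoepithelial cells, fibroblasts and vascular endothelial cells. The summed HS markers in AV cells were 5940 to 12540 CPM in the young and 5529 to 10630 CPM in the aged mice, overlapping, since keratins are shared by both luminal types.

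Over all epithelial cells taken as 1 sum, as in a bulk sample, fewer cells of a type and less RNA of a gene per cell cannot be told apart. Prlr was then at 779.4, 1375 and 1242 CPM in the young and at 180.8, 197.6, 141.2 and 89.9 CPM in the aged mice (log2 -2.68 ± 0.28, adjusted p = 0.000456, edgeR). Pgr fell by 2.35 on the log2 scale (SE 0.29, adjusted p = 0.000755), Esr1 by 1.73 (SE 0.21, 0.000735) and Cited1 by 1.6 (SE 0.32, 0.00578), whereas Cish rose by 1.07 (SE 0.20, 0.00386). Every member but Tnfsf11 was tested, and these 5 passed, beside 30.1% of all genes. Stat5a missed the fold threshold by little, at 1.47-fold lower (adjusted p = 0.0247).

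The sum could be set beside the cell-type makeup directly. Taking the mean young level of each epithelial type at the UMI shares of each aged mouse gave 307.1 to 393.2 CPM of Prlr, between the young mean of 1132 CPM and the observed 89.9 to 197.6 CPM. The same calculation gave 21.7 to 27.0 CPM of Pgr, where 7.11 to 16.4 CPM were observed and the young mean was 72.7 CPM, and 11.9 to 13.6 CPM of Esr1, where 4.98 to 10.1 CPM were observed and the young mean was 28.2 CPM. For these receptors the calculated level lay below the young mean, and all 4 aged mice lay lower still. The calculated level leans on the young AV mean, 196 CPM for Prlr, at AV shares of 66.8 to 84.1% of the UMIs. The part of released RNA in that AV mean was not tested. Cited1 was different, with 60.2 to 91.4 CPM from the makeup and 36.7 to 124.1 CPM observed, 326 CPM being the young mean. Cish went the other way, with 36.2 to 37.1 CPM from the makeup and 41.2 to 68.5 CPM observed against a young mean of 30.4 CPM.

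**Figure D4:**
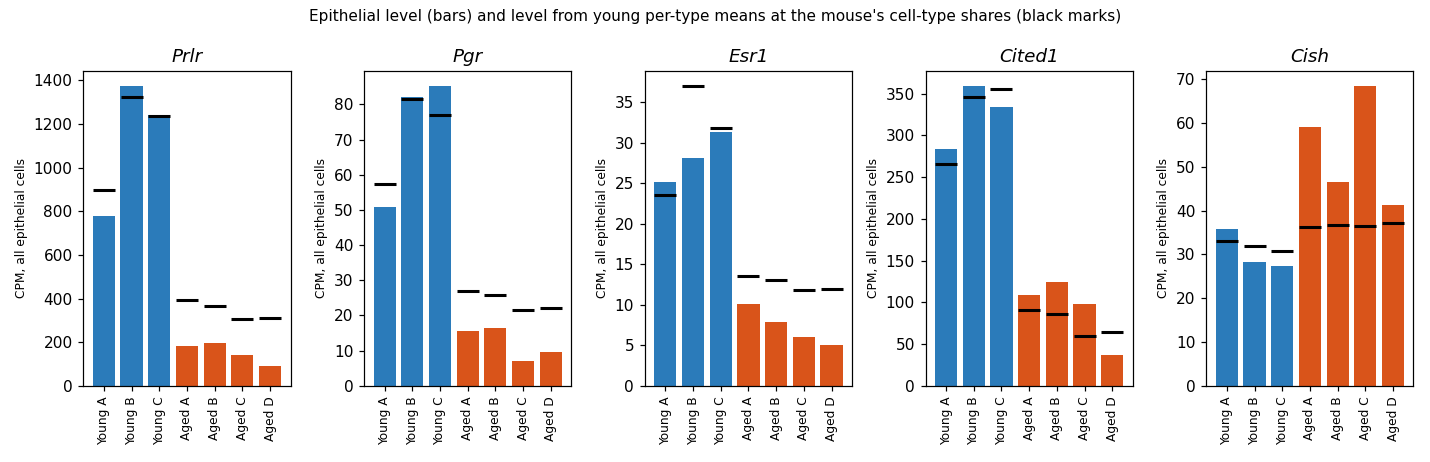
Level in CPM over all epithelial cells of each mouse (bars, from 0) for Prlr, Pgr, Esr1, Cited1 and Cish, with a black mark for the level that the young mean of each cell type gives at that mouse's own UMI shares of the types. In the aged mice the bars of Prlr lie at 89.9 to 197.6 CPM, below marks at 307.1 to 393.2 CPM, and the bars of Cish lie above their marks.

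Tnfsf11, the gene of the progesterone-induced ligand RANKL, was seen almost entirely in 1 mouse. Of its 139 UMIs, 123 were in HS cells and 114 of those in Young A, where its level was 41.5 CPM. It had no UMI in HS cells of Young B and Young C, where 3 UMIs would have been 1.59 and 0.490 CPM, and it stood at 0.813, 0, 4.08 and 5.92 CPM in those of Aged A to D. With every cell thinned to 2000 UMIs, 30 of 422 HS cells of Young A had a Tnfsf11 UMI (7.11%, 95% Wilson interval 5.03 to 9.97%). In Young B it was 0 of 285 cells, which allows a share of up to 1.05%, and in Young C 0 of 864, which allows up to 0.347%, both below that interval. Of the 30 cells, 3 also had a Pgr UMI. The gene did not reach the minimum count for the age test in any cell type.

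Calca, a known progesterone target, also stood far higher in Young A, at 3589 CPM in its HS cells, and at 14.3 and 7.03 CPM in those of Young B and C and 55.3, 0.487, 82.9 and 63.9 CPM in the aged mice, all mice being staged to diestrus. Wnt4, a ligand downstream of PR, was at 467.1, 222.3 and 181.9 CPM in the young and at 264.2, 561.6, 437.5 and 255.5 CPM in the aged mice (adjusted p = 0.394, edgeR), so that Young A was the highest of the young but not of all mice. Pgr itself was lower in Young A, at 86.7 CPM, than in the other young mice. Calca was also the gene whose pattern was most like that of Tnfsf11 (Pearson r = 0.73 of log2(CPM + 1) over 58 sums by mouse and cell type), both being highest in HS cells of Young A.

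The STAT5 genes lie side by side on chromosome 11 (Stat5b at 100780731 to 100850724, Stat5a at 100859351 to 100885169, GRCm38). Their products are close paralogs, and reads from stretches they share may not be assignable to either gene. In HS cells Stat5a was at 78.0, 59.4 and 53.0 CPM in the young and 78.9, 65.2, 51.6 and 39.0 CPM in the aged mice (log2 0.03 ± 0.20, adjusted p = 0.958, edgeR). In AV cells it ran from 20.3 to 29.0 CPM over the 7 mice (adjusted p = 0.387). Neither luminal type separated the age groups.

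Vascular endothelial cells did separate them. There Stat5a was at 13.1, 19.6 and 17.9 CPM in the young and at 40.3, 48.9, 62.4 and 55.2 CPM in the aged mice, 3.98-fold higher (log2 1.99 ± 0.24, adjusted p = 5.07e-05, edgeR), and it passed in all 15 alternatives (1.63 to 2.17). Stat5b in the same cells was at 21.9, 24.5 and 23.4 CPM against 13.8, 16.8, 24.1 and 18.4 CPM, with overlap (log2 0.02 ± 0.23, adjusted p = 0.968). Stat5b passed in none of the comparisons in which it was tested, and its HS level was 12.8, 13.3 and 13.6 CPM in the young and 17.1, 8.76, 9.51 and 17.7 CPM in the aged mice.

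Socs2, a STAT5 target whose product restrains growth hormone and prolactin signals, was also higher in the vascular endothelium of aged mice. A link between its level and that of Stat5a was not tested. It was at 174.4, 217.2 and 162.2 CPM in the young and at 605, 394.6, 346.7 and 290.7 CPM in the aged mice, 2.80-fold higher (log2 1.49 ± 0.23, adjusted p = 0.000313, edgeR, 1.13 to 1.64 in all 15 alternatives). Of the members tested in these cells, Prlr, Stat5a and Socs2 changed and Cited1, Stat5b and Cish did not, beside 26.7% of all genes. Cish, the other feedback inhibitor, was at 57.8, 42.5 and 45.4 CPM against 43.4, 27.2, 41.0 and 35.6 CPM (log2 -0.06 ± 0.21, adjusted p = 0.846), and did not pass.

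Markers of other cells moved with age in the vascular endothelial cells too. The 3 adipocyte markers (Adipoq, Plin1 and Cidec) summed to 52.0 to 62.6 CPM in the young and were at 0 in all 4 aged mice. Of the 4 immune markers, Cd74, which encodes the class II invariant chain, was at 187.8 to 575.7 CPM in the young and 616.7 to 8697 CPM in the aged mice and made up nearly all of their sum (198.2 to 599.5 and 618.8 to 8701 CPM). Lyz2 went the other way, from 8.17 to 20.4 CPM in the young to 0 to 2.12 CPM in the aged, and Ptprc and Cd3e were at or near 0 in both. The 3 pericyte markers summed to 98.6 to 346.3 CPM in the young and 5.59 to 66.9 CPM in the aged mice. Their part in the Stat5a and Socs2 differences was not tested.

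In HS cells Socs2 was at 76.2, 44.0 and 15.5 CPM in the young and at 200.8, 61.3, 111.4 and 157.3 CPM in the aged mice, overlapping only through Young A and Aged B (log2 1.69 ± 0.47, adjusted p = 0.0576, edgeR). It passed without Young A (2.27, adjusted p = 0.0396) and without Aged B (1.92, 0.0289). Fibroblast markers (Col1a1, Col1a2, Col3a1 and Dcn) in these HS cells summed to 60.5 to 159.6 CPM in the young and 288.1 to 1828 CPM in the aged mice, and their part in the Socs2 values was not tested. In pericytes, which wrap small vessels, the order was the reverse of that in the endothelium, with 247.1, 198.2 and 137.2 CPM in the young and 109.5, 143, 67.9 and 85.8 CPM in the aged mice. That difference did not pass (log2 -0.80 ± 0.28, adjusted p = 0.079), and it was the only member with enough counts to be tested in pericytes, where 11.8% of all genes changed. In Macrophage Mb and in T and B cells, where 1.16 and 0.656% of all genes changed, no member reached the minimum count for a test, so 0 were called.

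Cish, which encodes another cytokine-inducible inhibitor, was higher in AV cells of aged mice. It was at 35.2, 34.2 and 41.7 CPM in the young and at 72.2, 57.4, 74.2 and 49.0 CPM in the aged mice, with no overlap, 2.03-fold higher (log2 1.02 ± 0.21, adjusted p = 0.0216, edgeR). The call was lost without Young A, Young B, Young C or Aged C, with adjusted p between 0.0629 and 0.0804, and the fold stayed between 0.91 and 1.15 on the log2 scale. In fibroblasts Cish was at 24.3, 12.7 and 16.4 CPM in the young and 41.4, 34.5, 50.7 and 45.7 CPM in the aged mice (log2 1.29 ± 0.32, adjusted p = 0.0424). That call was lost without any 1 mouse but Young A (adjusted p 0.0643 to 0.196). In HS cells it did not separate the groups, at 35.7, 24.4 and 19.6 CPM against 17.1, 20.9, 29.9 and 30.8 CPM (log2 -0.01 ± 0.28, adjusted p = 0.995), but the test of the difference between HS and AV cells did not pass either (-1.02 ± 0.34, adjusted p = 0.137). Lymphatic endothelial cells, where the median Cish level was highest, were too few for a test.

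**Figure D5:**
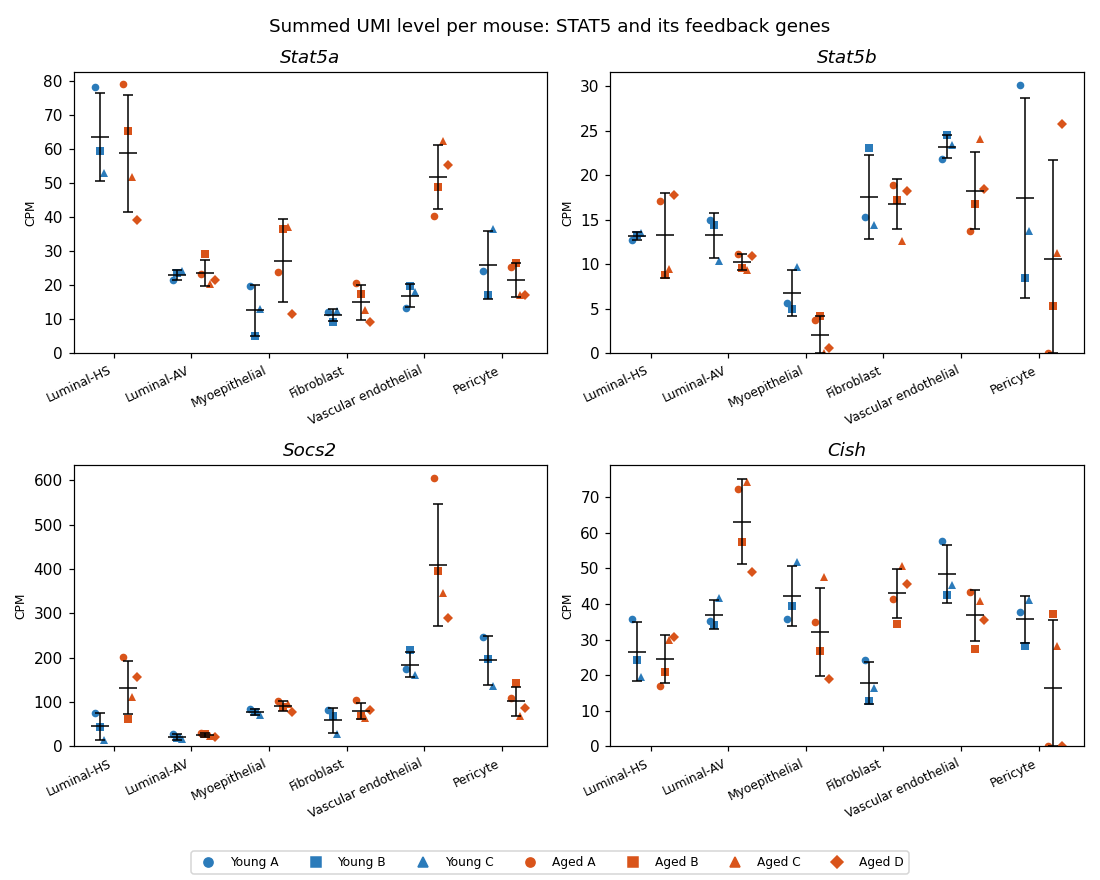
Level in CPM (linear axis) of Stat5a, Stat5b, Socs2 and Cish in each mouse by cell type, young beside aged, with the group mean ± SD in black. Stat5a and Socs2 of the 4 aged mice lie above the 3 young mice in vascular endothelial cells, and Cish does so in AV cells and fibroblasts.

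Detection per HS cell was compared between the age groups at 2000 UMIs in every cell (exact two-sided permutation tests, 9 tests). None of the 9 members passed, but the smallest p these mice allow is 0.0286. A single member at that p could not pass after adjustment over the 9 tests, so the tests cannot show that the shares were equal. A Prlr UMI was seen in 92.4 ± 2.61% of HS cells in the young (SD, n = 3) and 80.7 ± 10.3% in the aged mice (SD, n = 4, exact p = 0.114). Without thinning the shares were 98.3 to 99.3% and 94.6 to 100%. Pgr was seen in 19.2 ± 1.47% and 19.6 ± 2.87% (exact p = 0.857), Esr1 in 8.01 ± 1.30% and 9.28 ± 4.07% (exact p = 0.743) and Socs2 in 8.0 ± 5.30% and 20.7 ± 10.4% (exact p = 0.114). For comparison, 13.5, 23.1 and 20.2% of AV cells of young mice and 4.70 to 5.47% of those of aged mice had a Prlr UMI, beside 2.91 to 4.65% and 0 to 2.73% of vascular endothelial cells. A cell without a UMI at this depth may still express the gene, so these are shares of cells with a UMI and not of receptor-positive cells.

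Pairs of members were then read in the same HS cells. HS cells with a Pgr UMI had an Esr1 UMI more often by -0.03 percentage points, on average over 7 mice, than HS cells without one, and a Cited1 UMI more often by 1.93 points. The difference for Cited1 by Esr1 was 1.26 points (exact sign-flip permutation p = 0.766, higher in 3 of 7 mice). None of the 4 pairs passed, but a single pair at the smallest sign-flip p of 0.0156 could not pass after adjustment over the 4 pairs. For Tnfsf11 by Pgr the difference was 0 in Young B, Young C and Aged B, which makes its smallest p higher still. These tests therefore cannot show that the genes were detected independently of each other.

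Genes of the same pathways were read from 4 lists. In HS cells, where 6.26% of all genes changed, 1 of 18 tested steroid receptor and cofactor genes rose, Pgrmc1, which encodes a membrane-associated progesterone receptor component (log2 0.95 ± 0.17, adjusted p = 0.0123, edgeR), from 110.8, 151.7 and 117.5 CPM in the young to 261.7, 205.9, 211.9 and 225.9 CPM in the aged mice. None of 18 prolactin and growth hormone signaling genes and none of 7 STAT5 and progesterone targets passed. Of 5 paracrine genes tested, Cxcl12, a chemokine gene, fell (-2.21 ± 0.49, adjusted p = 0.0264). Median log2 changes were 0.03, 0.25, 0.47 and -0.67 for the 4 lists, beside 0.02 over all genes tested. Areg was at 2396, 1436 and 1935 CPM in the young and 912.8, 1288, 1374 and 883.7 CPM in the aged mice and did not pass (adjusted p = 0.107). Foxa1, a pioneer factor for ERα, was at 107.5, 70.0 and 68.0 CPM in the young and 94.3, 132.4, 133.1 and 93.5 CPM in the aged mice. Prl and Gh, the hormone genes themselves, had no UMI in HS cells of any mouse.

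In AV cells, where 6.16% of all genes changed, Pgrmc1 rose as well (0.77 ± 0.17, adjusted p = 0.0269, edgeR), 1 of 16 of its list, and none of 19 prolactin signaling genes passed. Of 10 STAT5 and progesterone targets, 2 rose: Elf5, the alveolar transcription factor downstream of prolactin (0.96 ± 0.18, adjusted p = 0.012), and the growth factor gene Tgfb2 (1.15 ± 0.28, adjusted p = 0.0397). Elf5 was at 178.3, 224.8 and 206.2 CPM in the young and 316.6, 321.8, 343.4 and 327.5 CPM in the aged mice, so it rose where Cish did and Prlr fell. Areg (-3.65 ± 0.36, adjusted p = 0.000657) and Cxcl12 (-2.24 ± 0.46, adjusted p = 0.0205) fell, 2 of 7 paracrine genes. The age effect differed between HS and AV cells for 2 of 8 paracrine genes (Areg and Wnt4) and 1 of 10 targets (Elf5). It did for none of 19 prolactin signaling and 18 steroid genes, beside 2.37% of all genes.

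In vascular endothelial cells 4 of 8 tested STAT5 and progesterone targets rose and none fell, beside 26.7% of all genes changed in either direction, and the median log2 change was 0.83 beside -0.05 over all genes tested there. They were Cebpb (1.26 ± 0.19, adjusted p = 0.000257, edgeR), Igf1 (0.97 ± 0.20, 0.00317), Gata2 (0.90 ± 0.19, 0.00334) and Pim1 (0.88 ± 0.18, 0.00287). These encode 2 transcription factors, a growth factor and a survival kinase. Of 18 prolactin signaling genes tested, 2 rose and 2 fell, beside the same 26.7% of all genes. The phosphatase gene Ptpn1 (1.62 ± 0.19) and the adaptor gene Grb2 rose, and Socs1 was among those that fell. Jak2 was at 78.7, 115.4 and 155.3 CPM against 101.7, 78.2, 117.6 and 97.1 CPM. The RANKL receptor gene Tnfrsf11a rose (2.74 ± 0.27, adjusted p = 1.24e-05), from 10.2, 12.5 and 20.6 CPM to 69.9, 58.7, 61.5 and 85.7 CPM, and Cxcl12 fell, 2 of 4 paracrine genes tested. Gper1, Nrip1 and Xbp1 rose and Ncor1 fell, 4 of 14 of the steroid list.

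In myoepithelial cells the genes that passed were Grb2, Ptpn2 and Socs5 (higher, 3 of 17 prolactin signaling genes), Tgfb2 (higher, 1 of 8 targets), Xbp1 (higher) and Tfap2c (lower) of 12 steroid genes, and Areg (lower, 1 of 7 paracrine genes). These shares all lay below the 27.6% of all genes that changed in myoepithelial cells. Fibroblasts gave Cebpb (higher, 1 of 5 targets, beside 3.17% of all genes). In pericytes Pgrmc1 (1 of 6 steroid genes) and Id2, an inhibitor of differentiation factors (1 of 5 targets), were higher, beside 11.8% of all genes. Over all epithelial cells, 5 of 10 targets rose (Elf5, Id2, Cebpb, Pim1 and Tgfb2), beside 30.1% of all genes changed in either direction. Nr3c1, Tfap2c, Egfr and Tnfrsf11a were also higher, and Foxa1, Greb1, Myb, Nrip1, Jak2, Ptpn1, Socs3, Areg, Calca, Wnt4 and Wnt5a were lower, in a sum where the share of HS cells changed as given above. These came from 18 steroid, 19 prolactin signaling and 10 paracrine genes tested. Differences in age effect against myoepithelial cells passed in HS cells for Areg, Cxcl12, Elf5, Foxa1, Xbp1 and Ptpn2. Tested were 10 paracrine, 19 prolactin signaling, 9 target and 18 steroid genes, beside 9.35% of all genes that passed. In AV cells 1 of 11 paracrine, 2 of 18 prolactin signaling, 1 of 9 target and 2 of 17 steroid genes passed, beside 9.07% of all genes. Among these were Cxcl12, Socs3, Socs5, Ccnd1 and Greb1.

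The genes whose levels ran most closely with a member across the 58 sums by mouse and cell type, of 11509 genes compared, were Areg for Prlr (Pearson r = 0.92), Cd164 for Pgr (0.86), Cldn10 for Esr1 (0.86), Tmem54 for Cited1 (0.86) and Hipk2 for Stat5a (0.70). Next came Tmem56 and Ly6d for Prlr (both 0.91), Dnaic1 and Tmem54 for Pgr (both 0.84), Efs and Cd164 for Esr1 (both 0.78), Krt4 and Wfdc2 for Cited1 (both 0.86), Atp7b and Tmprss6 for Tnfsf11 (0.64 and 0.59), and Cops2 and Diaph1 for Stat5a (both 0.67). The sums share libraries and cell types, so these values describe a common pattern and carry no test.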

How the data were processed

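Each mouse gave a single 10x library (3′ chemistry, v2), whose reads were mapped by Cell Ranger 2.0 to build mm10, per the submitters' processing notes. The authors deposited a table of unnormalized UMI counts, genes by cells, after their own filters on cells, genes and doublets, together with a cell type for each cell. The deposited counts were whole numbers, 8959 of 27998 genes had none, and the smallest cell had 2714 UMIs. Doublets were not called again.

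UMIs were summed per mouse and cell type (at least 3 cells) and tested with edgeR 4.0.16 in R 4.3.3 (quasi-likelihood, TMM factors, filterByExpr, Benjamini-Hochberg over all genes tested). A change was counted at an adjusted p under 0.05 and at least 1.5-fold. SE is the log2 change divided by the root of F. CPM use the sum's own total, without TMM, and 3′ UMIs are not length-scaled, so levels of different genes were not compared. The difference of age effects was the age by cell type term with the mouse as a block. Shares of cells used cells thinned to 2000 UMIs. They were tested by exact permutation over mice (smallest p 0.0286) or by sign flips over 7 mice (smallest 0.0156, higher where a mouse showed no difference). Wilson intervals and the limit that a count of 0 allows (3 counts) cover counting error only. P-values measure the spread between these mice.

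Alternatives were DESeq2 1.42.0, RLE factors, library totals without a factor (added after seeing the data), no filter, no fold minimum, sums thinned to the smallest total, at least 10 cells per mouse, the title letter as a block, other thinning, and leaving out each mouse. The edgeR fits were tested on simulated data. The members, the pathway lists and the markers were chosen with earlier results of these data known. Named were the 9 members, every list gene that passed (some items are not reported here), and the 3 genes most like Prlr, Pgr, Esr1, Cited1, Tnfsf11 and Stat5a (mean of at least 10 CPM in 1 type, sums of at least 10 cells). Jak2, Foxa1, Prl, Gh and Wnt4 in HS cells are given besides, chosen after their values were seen. Of the marker lists, those whose levels stand beside a result are printed. Adipocyte, Schwann and immune markers were checked as other cells of the gland. Promoter windows came from RefSeq and gene locations from GENCODE vM21. One promoter, of Socs2, was not used here.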

Additional observations from a re-analysis of the deposited data

Results flagged for a closer look

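For 7 pairs of member and cell types, the age effect itself differed between the cell types (age by cell type term, edgeR quasi-likelihood test, Benjamini-Hochberg over all genes). Against AV cells, the log2 change from young to aged was more positive in HS cells by 2.17 for Prlr, 2.94 for Pgr, 1.87 for Esr1 and 2.18 for Cited1. Against myoepithelial cells it was more positive in HS cells by 1.39 for Prlr (SE 0.43, adjusted p = 0.0456) and by 2.17 for Pgr (SE 0.59, adjusted p = 0.0235). For Cish it was more positive in AV than in myoepithelial cells by 1.22 (SE 0.31, adjusted p = 0.0176). Of these differences, those of Prlr, Pgr and Cited1 between HS and AV cells passed in all 12 alternatives run. That of Esr1 was lost without Young C (1.97, adjusted p = 0.0653). The pair for Prlr against myoepithelial cells was lost by DESeq2 and without Young A, Young B, Aged C or Aged D (0.97 to 1.64). That of Pgr was lost without Young A or Young B (adjusted p 0.157 and 0.0591), and that of Cish without Young A or Young C (0.0873 and 0.0671). In none of the 38 groups of 4 aged mice tested did a member's level stand apart by Dixon's criterion.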

How the results depend on the processing

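Of 893 alternative values of single members, 829 kept their side of the threshold, 40 lost the call, 24 gained it and 0 reversed as calls. The 829 include 30 values that did not pass and changed sign. The cause of the changes below was not tested unless the setting names it. In HS cells the count of members that changed, 0, was 1 by DESeq2, 2 without the filter on low counts, 1 with sums thinned to equal totals, 1 with the replicate block and 0 to 1 with 1 mouse left out, in each case Socs2 and, without the filter, also Tnfsf11. In AV cells the 5 became 1 when thinned to equal totals, where Pgr, Esr1 and Cited1 fell under the filter, and 2 to 5 with 1 mouse left out. The 1 of myoepithelial cells became 2 without the filter, 0 when thinned and 0 to 2 with 1 mouse left out (2 without Aged D, Stat5a being added). The 2 of fibroblasts became 1 with library totals, 0 when thinned, 1 with the replicate block and 0 to 1 with 1 mouse left out. In pericytes 0 became 1, Socs2, with library totals and without the filter. Over all epithelial cells 5 to 6, and in vascular endothelial cells 2 to 3, were counted with 1 mouse left out. Between HS and myoepithelial cells the 2 differing members became 1 by DESeq2 and 0 to 3 with 1 mouse left out. Between AV and myoepithelial cells the 1 became 2 without the filter and 0 to 2 with 1 mouse left out. The replicate letters name different animals: correlations of same-letter deviations were -0.091, 0.066 and -0.033 in HS cells, and 1 of 3 young mice ran best with its own letter. In the replicate block fit Socs2 passed in HS cells (adjusted p = 0.0487), and Esr1 in AV cells (0.0503) and Cish in fibroblasts (0.212) did not. Library totals without a scaling factor, added after seeing the data, moved the median log2 change of all genes from near 0 to -0.101 in HS, -0.254 in AV and -0.406 in vascular endothelial cells, and the split of higher against lower calls from 332 and 197 to 181 and 281, from 319 and 359 to 188 and 851, and from 1155 and 944 to 679 and 2347. Under it Cish in AV cells was not called (0.75, adjusted p = 0.0544). Counts over all genes moved by over 1.5 times too: in HS cells from 529 to between 134 and 1215, in AV cells from 678 to between 192 and 1039, in myoepithelial cells from 1860 to 707 and 977, in fibroblasts from 175 to between 27 and 582, in pericytes from 307 to between 128 and 560, in HS-AV cells from 9 to between 3 and 50, in Macrophage Mb from 10 to between 2 and 71, and in T and B cells from 3 to between 1 and 44. For the differences of age effects they moved from 244 to between 83 and 514 (HS and AV), from 845 to between 465 and 506 (HS and myoepithelial) and from 900 to between 339 and 578 (AV and myoepithelial). None of 81 alternatives for shares of cells and 40 for joint detection passed, but few of them could. With 1 mouse left out, the exact test of shares allows no p under 0.05. A single share or pair at its smallest p would not pass after adjustment either, so these counts do not show that the results are firm. The minimum of 10 cells could not be fitted for HS-AV, Macrophage Mb or T and B cells and was not run.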

Other observations

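Socs2 was present in lymphatic endothelial cells of 6 of the 7 mice, at 0 to 282.1 CPM in the young and 127.1 to 660.9 CPM in the aged mice, from 11 and 24 UMIs in all. Cish in those cells ran from 105.6 to 207.9 CPM in the young and from 31.8 to 367.2 CPM in the aged mice, from 8 and 17 UMIs. Some of these mice had fewer than 3 lymphatic endothelial cells.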
